A study of Mus musculus with 10 samples.

Results

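The genes described here encode the secreted Wnt ligands, the receptors that read them and the secreted proteins that hold them back, in mouse nephron progenitors and in the cells that these progenitors became in culture. Members were the genes on the array named Wnt, Fzd, Rspo, Sfrp or Dkk with a number, together with Frzb, the co-receptors Lrp5 and Lrp6, the R-spondin receptors Lgr4, Lgr5 and Lgr6, and the pathway targets Axin2 and Lef1. The rule found 49 genes with 61 probes, of 34607 gene names with 55681 probes on the array. Of the 49 members, 41 were tested, because in 1 or more groups both arrays read them well above background, among 26252 tested genes in all. The 8 that were not tested were Rspo2, Rspo4, Sfrp4, Wnt2, Wnt3, Wnt3a, Wnt8a and Wnt10a, and of these Rspo2, Rspo4, Wnt2 and Wnt3a were above background on no array.

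Wnt proteins are short-range signals that bind a Frizzled receptor and, for the beta-catenin branch, an Lrp5 or Lrp6 co-receptor, after which beta-catenin enters the nucleus and acts with T-cell factor and Lef proteins. R-spondins bind Lgr receptors and keep Frizzled proteins at the cell surface, secreted Frizzled-related proteins bind Wnts outside the cell, and most Dickkopf proteins block the Lrp co-receptors. In the developing kidney, Wnt9b from the ureteric bud acts on the neighbouring progenitors both to renew them and to start nephron formation, and Wnt4 made by the induced cells carries that formation forward.

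Expression was measured on 10 single-colour Agilent arrays, 2 for each of 5 groups. All cells came from Six2-GFP transgenic mice on a C57BL6J/ICR background, in which GFP reports Six2, a transcription factor of the nephron progenitor. Progenitors were the GFP-positive cells, sorted from embryos at E11.5 or from newborns at P0; the GFP-negative cells of newborns are called P0 non-progenitors; and the 8-day and 19-day cultures were E11.5 GFP-positive cells grown on in conditioned medium for that time. The labels do not say how the transgene was built, whether cultured cells were sorted again, or whether replicates came from separate litters or cultures, so p-values measure only the spread between these samples. Values are log2 intensities relative to the 75th percentile of the same array, so that 0 is that percentile and 1 unit is a change of 2-fold. A level of 1 probe is not comparable with that of another. Differences were tested with limma across all genes, 2-sided, with Benjamini-Hochberg adjustment, and a gene passed at an adjusted p under 0.05. In these bulk samples, fewer cells of a type and less RNA per cell cannot be told apart.

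The labels were checked against 6 markers of nephron progenitors (Six2, Cited1, Eya1, Osr1, Meox1 and Crym). All 6 were above background on both arrays of each fresh group and of the 8-day culture, and 4 of 6 in the 19-day culture, where Meox1 was above background on neither. The Eya1 probe was bright everywhere, and without it the summed linear level was 72.2 to 83.7 in E11.5 progenitors, 86 to 107 in P0 progenitors, 3.68 to 4.69 in P0 non-progenitors, 73.7 to 73.8 in the 8-day culture and 3.95 to 8.6 in the 19-day culture. The sum hides markers that went apart. From E11.5 progenitors to the 8-day culture Meox1 went from 3.7 and 3.98 to -2.4 and -2.87, and Cited1 from 3 and 3.64 to 0.56 and 1.68. Six2 was 4.7 and 4.82 and then 5.21 and 4.61, Crym was 4.5 and 4.33 and then 4.79 and 5.42, and the Osr1 arrays overlapped. Arrays had 60.4% to 69.8% of spots well above background, and their number limits the precision. Replicates of members differed by a root mean square of 0.85 log2 units in P0 progenitors, 1.08 in P0 non-progenitors, 1.46 in E11.5 progenitors, 1.78 in the 19-day culture and 1.86 in the 8-day culture. Slide 1 held every freshly sorted array and 8-day replicate 1, and slide 2 held 8-day replicate 2 and both 19-day arrays, so that the 19-day cultures share no slide with fresh cells.

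Most member calls came from P0 progenitors against the other cells at birth and from the 19-day culture against fresh progenitors. In P0 progenitors against P0 non-progenitors, 10 of 41 tested members passed, 4 higher and 6 lower, beside 8.41% of all tested genes (4.24% higher and 4.17% lower). Their median absolute difference was 1.48 log2 units against 0.47 over all genes. In the 19-day culture against E11.5 progenitors 13 passed, 6 higher and 7 lower, where 16.8% of all genes passed (7.25% higher and 9.6% lower), and the median absolute differences were 1.23 and 0.6. Against P0 progenitors the 19-day culture gave 11 calls, 3 higher and 8 lower, beside 12.7% of all genes (5.78% higher and 6.96% lower). P0 against E11.5 progenitors gave 2 calls, both higher, beside 3.97% of all genes (2.04% higher and 1.93% lower). The 8-day culture against E11.5 progenitors gave 3, 2 higher and 1 lower, beside 4.84% (2.77% higher and 2.06% lower). The 8-day culture against P0 progenitors gave 1, lower, beside 3.99% (2.41% higher and 1.58% lower). Between the culture times 7 members passed, 3 higher and 4 lower at 19 days, beside 8.09% (2.68% higher and 5.42% lower). Across all 5 groups 18 of 41 members differed by limma's F test, beside 24.1% of all genes. Comparisons that have the E11.5, P0 or a culture group in common share those arrays.

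Most of the counts moved when 1 array was left out. The share of all genes that passed in each of these fits was not counted. A loss of calls among members therefore cannot be told from a loss over the whole array. P0 progenitors against non-progenitors gave 4 calls without P0 progenitor replicate 1, 3 without P0 progenitor replicate 2, 5 without P0 non-progenitor replicate 1 (4 of them among the 10) and 4 without P0 non-progenitor replicate 2. The 19-day culture against E11.5 progenitors gave 8 without 19-day replicate 1, all among the 13, and 9 to 11 without each of the other arrays, of which 9 or 10 were. Against P0 progenitors it gave 6 without P0 progenitor replicate 1 and 8 without each other array, of which 7 or 8 were among the 11. P0 against E11.5 progenitors gave 0 calls without either P0 progenitor array, with 7 and 8 members at an unadjusted limma p under 0.05, and 3 without E11.5 replicate 2. The 8-day culture against E11.5 progenitors gave 0 calls without 8-day replicate 2, with 9 at an unadjusted p under 0.05, and 1 without E11.5 replicate 1 or without 8-day replicate 1. The 8-day culture against P0 progenitors gave 0 without either P0 progenitor array, with 8 and 6 at an unadjusted p under 0.05. Of 47 calls over the 7 comparisons, 20 passed without each array in turn, and none changed direction under any setting tried.

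**Figure D1:**
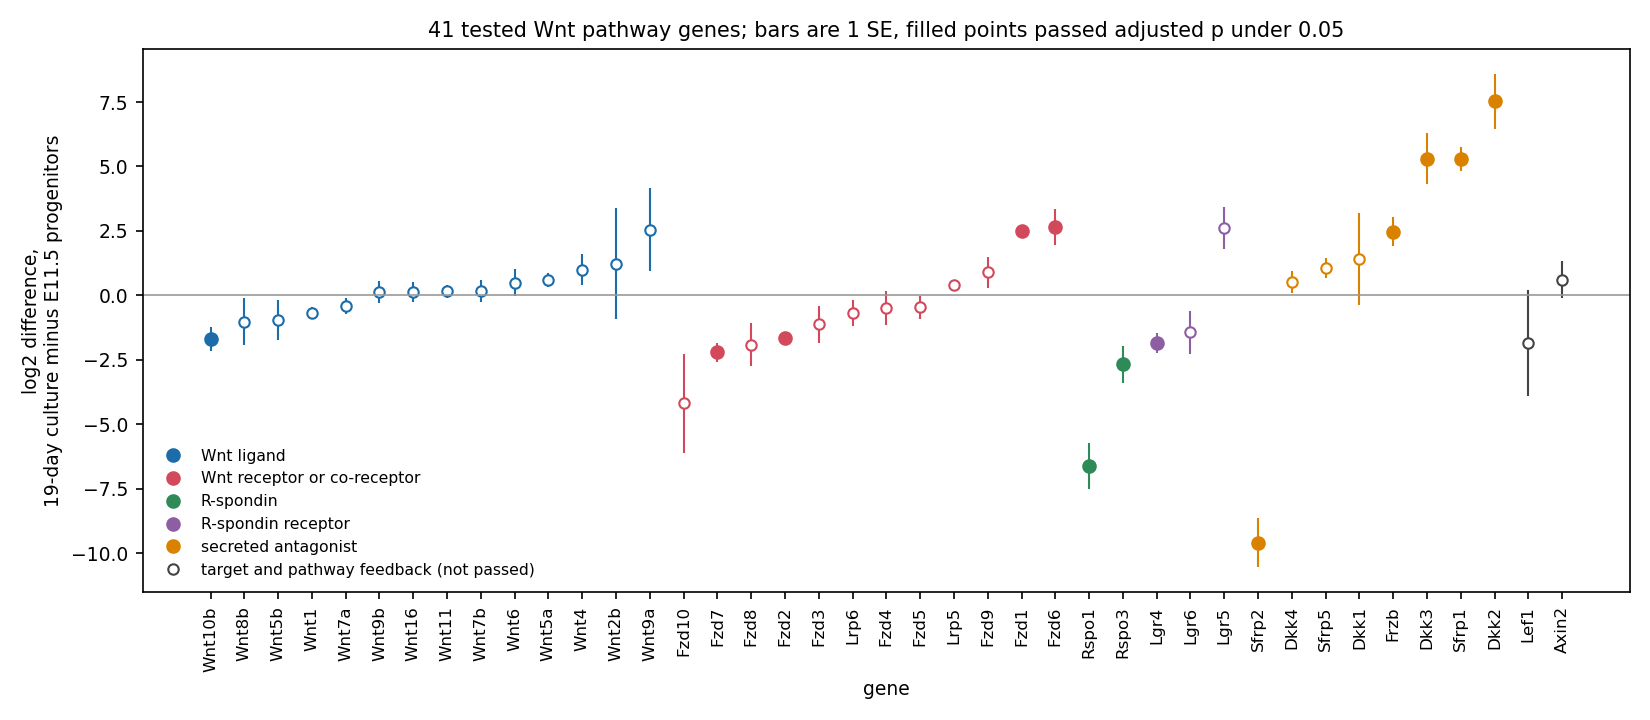
Log2 difference of the 19-day culture minus E11.5 progenitors (vertical axis) for each of the 41 tested members (horizontal axis), coloured by role, with bars of 1 SE and filled points for members that passed. Of the secreted antagonists, Dkk2, Dkk3, Frzb and Sfrp1 are filled points above 0 and Sfrp2 lies lowest of all at -9.59, both R-spondins lie below 0, and among the ligands Wnt10b is the filled point.

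Wnt4 stood out among the ligands in P0 progenitors. Wnt4 is the signal that induced progenitors make as they form a nephron. Its level was 1.07 and 2.45 in E11.5 progenitors, 5.04 and 5.12 in P0 progenitors, 1.31 and 1.37 in P0 non-progenitors, -0.23 and 1.15 in the 8-day culture and 3.26 and 2.25 in the 19-day culture. Both P0 progenitor arrays read above all the others. The gene was higher in P0 than in E11.5 progenitors by 3.32 ± 0.59 log2 units (SE, limma adjusted p = 0.0272), 9.99-fold, and higher than in P0 non-progenitors by 3.74 ± 0.59 (limma adjusted p = 0.0105), 13.4-fold. In the 8-day culture it was 24.6-fold lower than in P0 progenitors (-4.62 ± 0.59, limma adjusted p = 0.0103) and in the 19-day culture 5-fold lower (-2.32 ± 0.59, limma adjusted p = 0.0424). Neither culture differed from E11.5 progenitors beyond the threshold (-1.3 ± 0.59 at 8 days, limma adjusted p = 0.276, and 1 ± 0.59 at 19 days, limma adjusted p = 0.305). The second Wnt4 probe had means of 0.45 in E11.5 progenitors, 2.8 in P0 progenitors, 0.32 in P0 non-progenitors, -0.38 at 8 days and 1.15 at 19 days, the same order of groups. The call against E11.5 progenitors was kept without 1 of the 4 arrays and that against non-progenitors in none of these fits, with differences of 2.63 to 4.01 and of 3.7 to 3.78. The call at 8 days against P0 progenitors was kept without 2 of the 4 arrays and that at 19 days in none of these fits. The first was -5.31 (limma adjusted p = 0.0208) and the second -3.7 (limma adjusted p = 0.0809) with the slide as a block.

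Wnt9b and Wnt7b, ligands of the ureteric epithelium, were read mainly in P0 non-progenitors. Wnt9b was 1.35 and 0.48 there, -3.10 and -3.43 in E11.5 progenitors, -3.03 and -2.89 in P0 progenitors, -3.48 and -3.31 in the 8-day culture and -2.77 and -3.52 in the 19-day culture. Wnt7b, which patterns the renal medulla, was 0.46 and -0.29 in P0 non-progenitors, -3.08 and -3.08 in E11.5 progenitors, -2.96 and -3.32 in P0 progenitors, -3.28 and -3.17 in the 8-day culture and -2.44 and -3.40 in the 19-day culture. For both genes the P0 non-progenitor arrays lay above every other array. Wnt9b was 14.6-fold lower in P0 progenitors than in non-progenitors (-3.87 ± 0.42, limma adjusted p = 0.00273) and Wnt7b 9.33-fold lower (-3.22 ± 0.43, limma adjusted p = 0.00618). The 10 markers of ureteric bud and collecting duct were highest, as a sum, in P0 non-progenitors, at 33.5 to 38.9, with all 10 above background on both arrays. In P0 progenitors the sum was 5.12 to 8.03, with 6 of 10 above background on both arrays and Ret on neither. Aqp2 and Krt18 carry much of the sum, at 3.6 and 3.58 and at 3.53 and 3.14 in P0 non-progenitors. Hoxb7 overlapped between the fractions, at 1.83 and 1.41 in P0 non-progenitors and 1.72 and 1.8 in P0 progenitors. So did Calb1, at 0.49 and 0.74 against 0.52 and -3.92. The sum was 1.14 to 3.83 in E11.5 progenitors, 1.06 to 1.79 at 8 days and 0.969 to 1.33 at 19 days, with Ret, Krt8 and Cdh1 above background on no array of these groups. The part of ureteric cells in the ligand differences was not tested.

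Among the other ligands, Wnt10b and Wnt8b each passed in 1 comparison. Wnt10b was -2.84 and -3.58 in E11.5 progenitors, -3.56 and -3.36 in P0 progenitors, -4.83 and -4.09 in P0 non-progenitors, -4.21 and -3.90 in the 8-day culture and -5.14 and -4.63 in the 19-day culture, where it was not well above background. It was at least 2.81-fold lower in the 19-day culture than in E11.5 progenitors (limma adjusted p = 0.0445), and this call was lost without any of the 4 arrays in turn. Wnt8b was 0.32 and 1.25 in P0 progenitors, -2.20 and -3.33 in E11.5 progenitors, -0.42 and -3.42 in P0 non-progenitors, -2.39 and -2.58 at 8 days and -3.81 and -3.79 at 19 days. Its P0 progenitor arrays were higher than all others, and it was 24.1-fold lower in the 19-day culture than in P0 progenitors (-4.59 ± 0.91, limma adjusted p = 0.0182). The second Wnt8b probe gave a smaller difference of -1.18, and the call was lost without any of the 4 arrays in turn. The Wnt10b and Wnt8b calls were lost too with the slide as a block (limma adjusted p = 0.217 and 0.223).

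Wnt5a, a ligand known for signalling that does not need beta-catenin, was read on every array between 2.2 and 3.48. Wnt5b lay between 0.31 and 3.1, Wnt11, made by the ureteric tip, between -1.26 and -0.45, Wnt1 between 0.27 and 1.25, and Wnt7a between -3.51 and -2.56. None of these 5 passed in any comparison. Wnt11 and Wnt7a spanned less than 1 log2 unit over all 10 arrays, as did Wnt1. Wnt6, Wnt16, Wnt2b and Wnt9a did not pass either, and the replicates of Wnt2b lay far apart in the 8-day culture, at 1.26 and -4.8, and in the 19-day culture, at -6.1 and -0.72. Of the 14 tested ligands, 0 passed in the 8-day culture against E11.5 progenitors, and 0 had an unadjusted limma p under 0.05. Only 4.84% of all genes passed in that comparison, so few calls could come from so short a list.

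**Figure D2:**
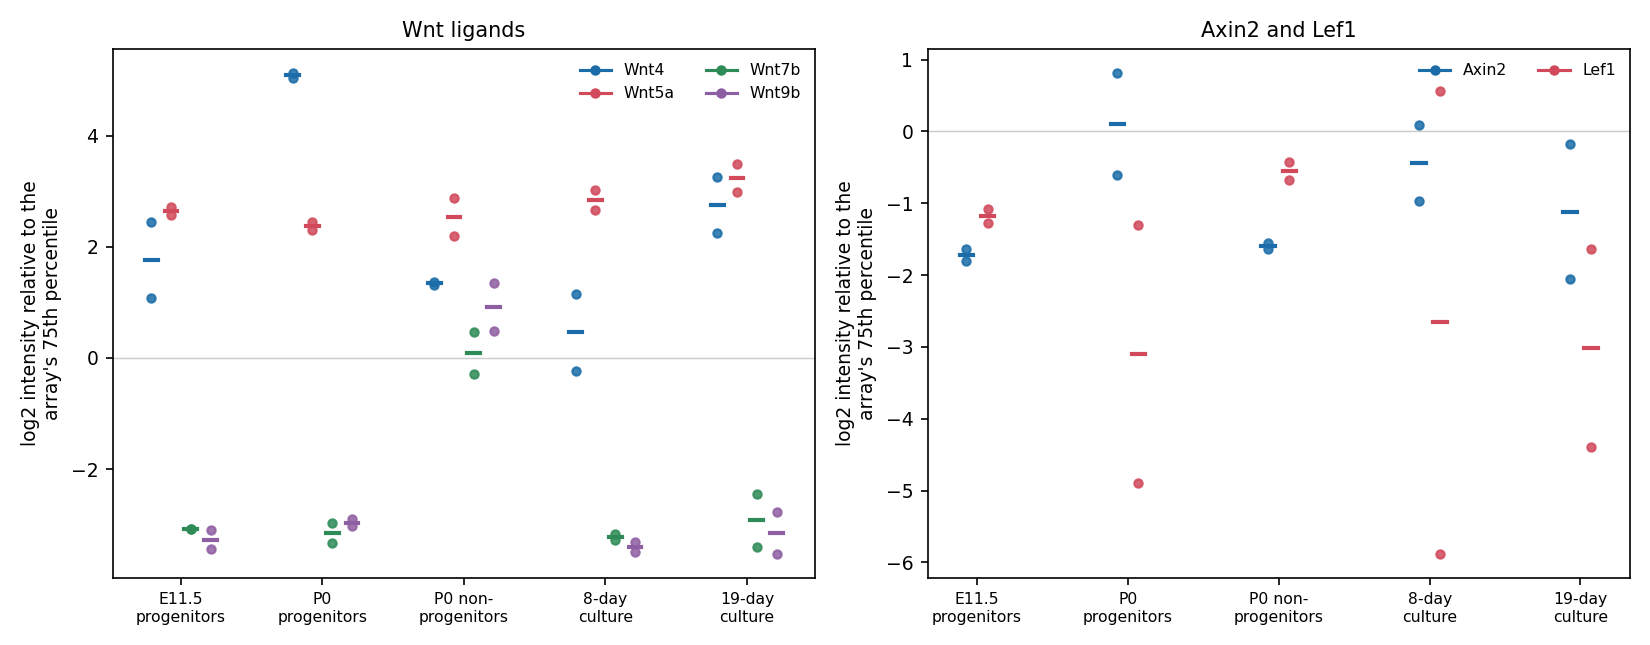
Log2 intensity relative to the array's 75th percentile (vertical axis) in the 5 groups (horizontal axis) for 4 Wnt ligands on the left and for Axin2 and Lef1 on the right; each point is 1 array and each short bar the mean of 2. Wnt4 is highest in P0 progenitors, Wnt7b and Wnt9b are highest in P0 non-progenitors, and the 2 Lef1 points of the 8-day culture lie far apart, at -5.88 and 0.56.

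Among the Frizzled receptors, Fzd1 and Fzd2 moved in opposite directions, both at birth and in the 19-day culture. Fzd1 was 0.61 and 0.61 in E11.5 progenitors, 0.24 and 0.51 in P0 progenitors, 1.90 and 1.79 in P0 non-progenitors, 0.72 and 1.19 in the 8-day culture and 3.11 and 3.07 in the 19-day culture. Fzd2 was 4.81 and 4.60 in E11.5 progenitors, 4.85 and 4.97 in P0 progenitors, 1.99 and 1.70 in P0 non-progenitors, 5.40 and 5.28 in the 8-day culture and 3.02 and 3.06 in the 19-day culture. Fzd1 was highest in the 19-day culture, next in the non-progenitors, and Fzd2 was lowest in these same groups, with no overlap between them and the 3 progenitor-derived groups with a high Six2 level. P0 progenitors had 8.35-fold more Fzd2 (3.06 ± 0.15, limma adjusted p = 0.000451) and 2.76-fold less Fzd1 (-1.47 ± 0.23, limma adjusted p = 0.0102) than P0 non-progenitors. The 19-day culture had 5.59-fold more Fzd1 (2.48 ± 0.23, limma adjusted p = 0.000764) and 3.18-fold less Fzd2 (-1.67 ± 0.15, limma adjusted p = 0.000754) than E11.5 progenitors. Against P0 progenitors the 19-day differences were 2.71 for Fzd1 and -1.87 for Fzd2. All of these calls but that of Fzd1 at birth, which was lost without any of the 4 arrays in turn, passed under every setting tried, the slide as a block included (2.02 and -1.55 against E11.5 progenitors). The second Fzd2 probe fell by 1.31 in the 19-day culture against E11.5 progenitors.

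Fzd7, which is expressed in many stem and progenitor cells, was lowest in the 19-day culture. It was 1.73 and 1.75 in E11.5 progenitors, 2.31 and 2.62 in P0 progenitors, 1.49 and 1.06 in P0 non-progenitors, 1.46 and 1.22 in the 8-day culture and 0.09 and -1.01 in the 19-day culture. Both 19-day arrays lay below all 8 others. The gene was 4.59-fold lower than in E11.5 progenitors (-2.2 ± 0.37, limma adjusted p = 0.00752), 7.58-fold lower than in P0 progenitors (-2.92 ± 0.37, limma adjusted p = 0.00388) and 3.48-fold lower than at 8 days (-1.8 ± 0.37, limma adjusted p = 0.0266). All 3 were lost with the slide as a block, at -1.97 (limma adjusted p = 0.151), -2.69 (limma adjusted p = 0.0899) and -1.68 (limma adjusted p = 0.0971), and the third was kept without 1 of its 4 arrays. The second Fzd7 probe differed by -0.88 against E11.5 progenitors, its 19-day arrays lying above those of the P0 non-progenitors.

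Fzd6, a receptor of the planar polarity branch, was low at E11.5. It was -2.59 and -4.58 in E11.5 progenitors, 0.83 and 1.07 in P0 progenitors, 3.05 and 2.64 in P0 non-progenitors, -1.74 and -2.78 in the 8-day culture and -0.38 and -1.48 in the 19-day culture. At birth both fractions were above every E11.5 and culture array. P0 progenitors had 23.2-fold more than E11.5 progenitors (4.54 ± 0.7, limma adjusted p = 0.0174), a call kept without 2 of the 4 arrays, and the 19-day culture 6.31-fold more (2.66 ± 0.7, limma adjusted p = 0.0395), a call kept without 1 of its 4 arrays and lost with the slide as a block (3.7, limma adjusted p = 0.136). Only 1 of the 2 E11.5 arrays was above background for Fzd6.

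For Fzd10 and Fzd9, 1 side of the comparison that passed was not above background. Fzd10 was 0.58 and 0.19 in P0 progenitors, -5.62 and 0.40 in E11.5 progenitors, -0.77 and -1.42 in P0 non-progenitors, -3.59 and 0.53 at 8 days and -6.76 and -6.82 at 19 days. The 19-day arrays were the lowest, and the gene was at least 35.1-fold lower there than in P0 progenitors (limma adjusted p = 0.0499). Fzd9 was -3.53 and -4.20 in E11.5 progenitors, -6.03 and -4.53 in P0 progenitors, -3.84 and -3.09 in P0 non-progenitors, -5.16 and -5.61 at 8 days and -2.84 and -3.12 at 19 days, and it was at least 2.6-fold higher at 19 days than in P0 progenitors (limma adjusted p = 0.0441). These calls were kept without 0 and without 1 of their 4 arrays, and with the slide as a block neither passed (limma adjusted p = 0.104 and 0.225). The co-receptor Lrp5 lay between 1.71 and 2.46 and Lrp6 between 1.21 and 3.37 on all arrays, and neither passed in any comparison, nor did Fzd3, Fzd4, Fzd5 or Fzd8. The Fzd5 result rests on the brighter probe, which differed by -0.84 at birth and by -0.46 at 19 days against E11.5 progenitors. The second Fzd5 probe, above background on 7 arrays, differed by -4.36 and by 3.01 in the same comparisons. Of the 12 tested receptors and co-receptors, 0 passed in the 8-day culture against E11.5 progenitors, beside 4.84% of all genes, with 2 at an unadjusted limma p under 0.05.

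The promoters of Fzd1, a Frizzled gene that rose in the 19-day culture, and Fzd7, one that fell, are shown because beta-catenin acts through T-cell factor and Lef proteins bound to DNA. Each is the 250 bases before the gene's start from RefSeq on GRCm38.p6, Fzd1 at chr5:4758217-4758466 on the minus strand and Fzd7 at chr1:59481897-59482146 on the plus strand, written 5′ to 3′ along the gene with the T-cell factor motif in capitals.
Fzd1: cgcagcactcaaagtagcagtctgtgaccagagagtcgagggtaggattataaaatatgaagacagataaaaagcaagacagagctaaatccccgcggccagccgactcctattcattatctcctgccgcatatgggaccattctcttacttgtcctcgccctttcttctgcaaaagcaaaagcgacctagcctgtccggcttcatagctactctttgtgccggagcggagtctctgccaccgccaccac
Fzd7: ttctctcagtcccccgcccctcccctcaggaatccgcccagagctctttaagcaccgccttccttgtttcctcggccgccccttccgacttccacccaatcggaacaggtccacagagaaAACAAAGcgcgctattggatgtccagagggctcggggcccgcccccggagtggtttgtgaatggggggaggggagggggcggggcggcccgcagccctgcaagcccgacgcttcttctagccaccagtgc
The motif letters searched were the form CTTTGAA, the form CTTTGAT, the form CTTTGTA and the form CTTTGTT, on both strands. The Fzd7 window holds 1 match, starting 130 bases before the gene's start, and the Fzd1 window holds none. RefSeq windows were matched for 32 members, and 5 of their 38 windows (13.2%) hold a match, beside 4874 of 32851 windows of all genes (14.8%). The member windows with a match belong to Dkk1, Fzd7, Lef1, Wnt11 and Wnt5b, and Fzd7 is the one of these genes that passed in a comparison.

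**Figure D3:**
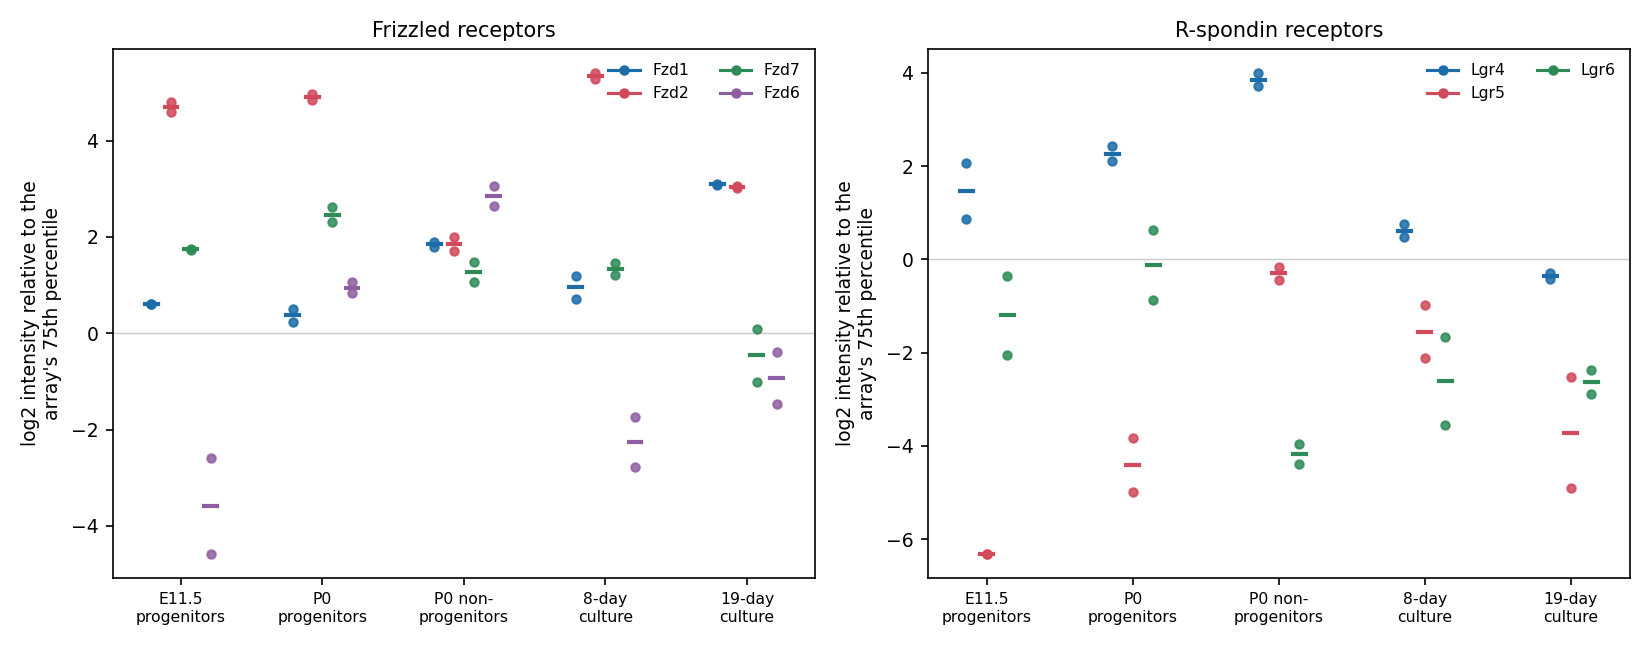
Log2 intensity relative to the array's 75th percentile (vertical axis) in the 5 groups (horizontal axis) for 4 Frizzled receptors on the left and 3 R-spondin receptors on the right; each point is 1 array and each short bar the mean of 2. Fzd1 is highest and Fzd7 lowest in the 19-day culture, and Lgr5 is highest in P0 non-progenitors.

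Both tested R-spondins, which strengthen Wnt signals, were lower in the 19-day culture than in E11.5 progenitors. Rspo1 was 3.64 and 3.42 in E11.5 progenitors, 3.73 and 3.74 in P0 progenitors, -0.81 and -0.20 in P0 non-progenitors, 2.12 and 2.03 in the 8-day culture and -1.46 and -4.75 in the 19-day culture. The 4 fresh progenitor arrays were highest, the 8-day arrays next and the 19-day arrays lowest. Rspo1 was 18.9-fold higher in P0 progenitors than in non-progenitors (4.24 ± 0.89, limma adjusted p = 0.0282), a call lost without any of the 4 arrays in turn, at 3.93 to 4.54. It was 99.2-fold lower in the 19-day culture than in E11.5 progenitors (-6.63 ± 0.89, limma adjusted p = 0.00332), where 1 of the 2 19-day arrays was above background, and this call held without each array in turn, at -8.28 to -4.98. It was 114-fold lower than in P0 progenitors (limma adjusted p = 0.00434) and 36.3-fold lower than at 8 days (limma adjusted p = 0.0143), the latter kept without 2 of its 4 arrays. These calls were lost with the slide as a block, at -6.55 (limma adjusted p = 0.0782), -6.75 (limma adjusted p = 0.0892) and -5.14 (limma adjusted p = 0.057). The 8-day difference from E11.5 progenitors did not pass (-1.45 ± 0.89, limma adjusted p = 0.429).

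Rspo3 was already lower at 8 days. It was 2.13 and 1.80 in E11.5 progenitors, -1.12 and -0.24 in P0 progenitors, -1.22 and -2.33 in P0 non-progenitors, -2.80 and -3.26 in the 8-day culture and 0.37 and -1.79 in the 19-day culture. Only E11.5 progenitors were above the 75th percentile on both arrays, and the lowest group was the 8-day culture. It was 31.8-fold lower at 8 days than in E11.5 progenitors (-4.99 ± 0.72, limma adjusted p = 0.0151) and 6.37-fold lower at 19 days (-2.67 ± 0.72, limma adjusted p = 0.0438). Both calls were lost when the slide was a block, at -4.76 (limma adjusted p = 0.0605) and -2.22 (limma adjusted p = 0.401), while on slide 1 alone the 8-day difference passed (-4.76, limma adjusted p = 0.0361). Each of the 2 calls was kept without 1 of its 4 arrays.

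Each of the 3 Lgr receptors differed between P0 progenitors and the other cells at birth. Lgr4 was 2.07 and 0.87 in E11.5 progenitors, 2.44 and 2.10 in P0 progenitors, 3.99 and 3.72 in P0 non-progenitors, 0.48 and 0.75 at 8 days and -0.30 and -0.43 at 19 days. Lgr5, a marker of epithelial stem cells and of early nephron segments, was -6.31 and -6.31 in E11.5 progenitors, -4.99 and -3.83 in P0 progenitors, -0.16 and -0.44 in P0 non-progenitors, -2.12 and -0.98 at 8 days and -2.53 and -4.90 at 19 days. Lgr6 was -2.04 and -0.35 in E11.5 progenitors, -0.87 and 0.62 in P0 progenitors, -3.95 and -4.38 in P0 non-progenitors, -3.54 and -1.66 at 8 days and -2.37 and -2.89 at 19 days. Lgr4 and Lgr5 were highest in the non-progenitors, which was the group with the least Lgr6 by the tested probe. P0 progenitors had 3-fold less Lgr4 (-1.58 ± 0.38, limma adjusted p = 0.0445), 17.2-fold less Lgr5 (-4.11 ± 0.81, limma adjusted p = 0.0226) and 16.4-fold more Lgr6 (4.04 ± 0.82, limma adjusted p = 0.0256). All 3 calls were lost without any of the 4 arrays in turn, with Lgr4 at -1.75 to -1.42 (with the slide as a block -1.58, limma adjusted p = 0.0644), Lgr5 at -4.69 to -3.52 and Lgr6 at 3.29 to 4.78.

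In culture, Lgr4 fell 3.57-fold by 19 days against E11.5 progenitors (-1.84 ± 0.38, limma adjusted p = 0.0164) and was 6.22-fold lower than in P0 progenitors (-2.64 ± 0.38, limma adjusted p = 0.00603). These calls were kept without 2 and without 3 of their 4 arrays, and with the slide as a block they were lost, at -2.11 (limma adjusted p = 0.137) and -2.91 (limma adjusted p = 0.0809). Lgr5 was not above background in E11.5 progenitors and was at least 7.55-fold higher at 8 days (limma adjusted p = 0.0239), a call lost without any of the 4 arrays in turn and with the slide as a block (limma adjusted p = 0.0877), while at 19 days it was at least 1.68-fold higher without passing (limma adjusted p = 0.0683). The second probe of Lgr5, for another transcript, was above background on 1 of 10 arrays, so that these values rest on 1 probe. The second Lgr6 probe differed by 1.32 at birth in the same direction, but it was lowest in E11.5 progenitors (-3.19) and not in P0 non-progenitors (-2.56).

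**Figure D4:**
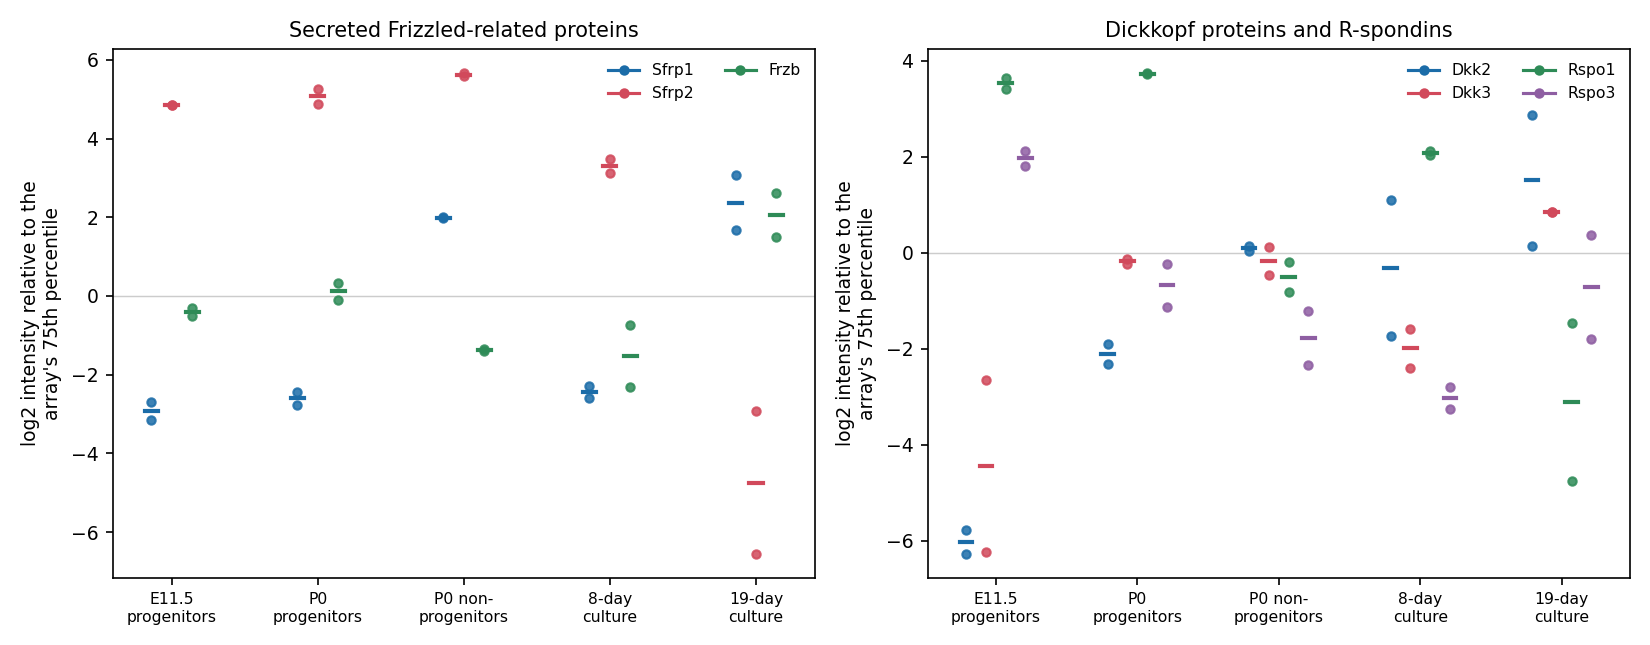
Log2 intensity relative to the array's 75th percentile (vertical axis) in the 5 groups (horizontal axis) for 3 secreted Frizzled-related proteins on the left and 2 Dickkopf proteins and 2 R-spondins on the right; each point is 1 array and each short bar the mean of 2. In the 19-day culture Sfrp1, Frzb, Dkk2 and Dkk3 lie above their E11.5 levels, and Sfrp2 and Rspo1 lie below them.

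The secreted antagonists included the members with the widest differences of the 19-day culture from E11.5 progenitors, Sfrp2 and Dkk2. In the 19-day culture against E11.5 progenitors 5 of 8 tested antagonists passed, 4 higher (Dkk2, Sfrp1, Dkk3 and Frzb) and 1 lower (Sfrp2), with a median difference of 1.94 against 0.01 over all genes, and the 16.8% of all genes that passed stands beside this count too. Sfrp2 was 4.85 and 4.85 in E11.5 progenitors, 4.88 and 5.26 in P0 progenitors, 5.58 and 5.66 in P0 non-progenitors, 3.12 and 3.47 in the 8-day culture and -6.55 and -2.93 in the 19-day culture. It was high on all 6 fresh arrays, lower at 8 days and lowest at 19 days, where 1 of 2 arrays was above background. It was 772-fold lower at 19 days than in E11.5 progenitors (-9.59 ± 0.95, limma adjusted p = 0.00103), 898-fold lower than in P0 progenitors (-9.81 ± 0.95, limma adjusted p = 0.00146) and 263-fold lower than at 8 days (-8.04 ± 0.95, limma adjusted p = 0.00448). Without each array in turn the first difference was -11.4 to -7.79 and passed each time. It also passed with the slide as a block (-9.95, limma adjusted p = 0.0326). P0 progenitors and non-progenitors did not differ beyond the threshold (-0.55 ± 0.95, limma adjusted p = 0.828).

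Sfrp1 went the other way. It was -2.70 and -3.16 in E11.5 progenitors, -2.76 and -2.43 in P0 progenitors, 2.00 and 1.98 in P0 non-progenitors, -2.28 and -2.59 in the 8-day culture and 3.07 and 1.67 in the 19-day culture. The 19-day and non-progenitor arrays read at least 1.67 and the other 6 at most -2.28. Sfrp1 was 39.4-fold higher in the 19-day culture than in E11.5 progenitors (5.3 ± 0.46, limma adjusted p = 0.000647), 28-fold higher than at 8 days (4.81 ± 0.46, limma adjusted p = 0.00268) and 23.9-fold lower in P0 progenitors than in non-progenitors (-4.58 ± 0.46, limma adjusted p = 0.00223). Its calls against both fresh progenitor groups and at birth passed under every setting tried, with the slide as a block included (5.6 against E11.5 progenitors, limma adjusted p = 0.0218).

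Frzb, a further Frizzled-related protein known from cartilage, was -0.31 and -0.50 in E11.5 progenitors, -0.10 and 0.33 in P0 progenitors, -1.35 and -1.41 in P0 non-progenitors, -2.30 and -0.73 in the 8-day culture and 2.62 and 1.51 in the 19-day culture. Both 19-day arrays lay above all the others. It was 12-fold higher at 19 than at 8 days (3.58 ± 0.56, limma adjusted p = 0.0109) and 5.52-fold higher than in E11.5 progenitors (2.47 ± 0.56, limma adjusted p = 0.0234). The latter was kept without 1 of the 4 arrays, and with the slide as a block it was 0.89 (limma adjusted p = 0.534).

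Dkk2 was not above background in E11.5 progenitors, at -5.78 and -6.27, and was -1.91 and -2.32 in P0 progenitors, 0.04 and 0.14 in P0 non-progenitors, -1.73 and 1.1 in the 8-day culture and 2.87 and 0.15 in the 19-day culture. Every other group lay above the E11.5 arrays. It was at least 62.9-fold higher at 19 days than in E11.5 progenitors (limma adjusted p = 0.00395), passing without each array in turn, and at least 17.7-fold higher at 8 days (limma adjusted p = 0.0303), passing without 1 of the 4 arrays. Both calls were lost with the slide as a block. The fitted 19-day difference went from 7.53 to 4.7 (limma adjusted p = 0.118) and that at 8 days from 5.71 to 4.29 (limma adjusted p = 0.0877). Dkk3, whose effect on Wnt signals is less settled than that of its relatives, was -2.66 and -6.24 in E11.5 progenitors, -0.23 and -0.12 in P0 progenitors, -0.47 and 0.12 in P0 non-progenitors, -2.39 and -1.59 at 8 days and 0.85 and 0.84 at 19 days. The 19-day arrays were the highest, and the gene was 39.2-fold higher there than in E11.5 progenitors (5.29 ± 0.99, limma adjusted p = 0.0115), where 1 of 2 arrays was above background. Without each array in turn the difference was 3.5 to 7.08, passing in 3 of 4 fits, and with the slide as a block it was 4.49 (limma adjusted p = 0.213). Dkk1, Dkk4 and Sfrp5 did not pass in any comparison. Dkk1 ranged from -6.27 to 0.01 with 7 of 10 arrays above background, Dkk4 from -3.98 to -2.12 and Sfrp5 from -0.68 to 0.86.

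The Sfrp2 promoter window, from the gene with the largest fall, lies at chr3:83766071-83766320 on the plus strand of GRCm38.p6 and holds no match to the T-cell factor letters given above. It is shown in lower case from RefSeq, the 250 bases before the gene's start.
Sfrp2: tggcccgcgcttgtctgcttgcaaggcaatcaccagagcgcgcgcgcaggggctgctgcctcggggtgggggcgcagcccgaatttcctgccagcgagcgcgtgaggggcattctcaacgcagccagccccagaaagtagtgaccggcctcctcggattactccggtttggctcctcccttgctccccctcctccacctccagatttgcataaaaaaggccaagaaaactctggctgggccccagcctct

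The markers of renal stroma were highest, as a sum, in the 19-day culture and in P0 non-progenitors, the groups in which Sfrp1 and Fzd1 were highest. The summed level of the 9 stromal markers was 41.1 to 48.9 in E11.5 progenitors, 18.8 to 20 in P0 progenitors, 68.4 to 72.5 in P0 non-progenitors, 24.8 to 38.5 in the 8-day culture and 163 to 205 in the 19-day culture. The collagen genes Col1a1 and Col3a1 carry much of the sum, at 6.36 and 5.64 and at 6.50 and 6.06 in the 19-day culture. The members of the list did not move as 1: from E11.5 progenitors to the 19-day culture Pdgfra, Pdgfrb, Dcn and both collagen genes were higher, while Foxd1, the transcription factor of stromal progenitors, went from 3.83 and 3.20 to -2 and -4.87, Meis2 from 4.36 and 4.46 to 2.46 and 1.54, and Tcf21 from 0.68 and 1.39 to -0.12 and -0.15. Of the 9, 8 were above background on both 19-day arrays and 9 on both P0 non-progenitor arrays, while Pdgfra was above background on neither array of E11.5 progenitors or of P0 progenitors. Not all of the other antagonists followed the sum: Sfrp2 was lowest at 19 days, Frzb was low in P0 non-progenitors, and the Dkk3 arrays of both fractions at birth overlapped. Dkk2 did have its highest means in these groups, 1.51 at 19 days and 0.09 in P0 non-progenitors, though 8-day replicate 2 read 1.1. The highest Sfrp5 means were there too, 0.6 and -0.12, the latter close to the 8-day mean of -0.14. The part of stromal cells in the values of Sfrp1 and Fzd1 was not tested. The slide was tested through the 8-day pair. With the slide as a block, 4 members kept their calls in the 19-day culture against E11.5 progenitors (Fzd1, Fzd2, Sfrp1 and Sfrp2), and the same 4 against P0 progenitors. On slide 2 alone, with 8-day replicate 2 against both 19-day arrays, the differences were 4.96 for Sfrp1, -8.21 for Sfrp2, 2.79 for Frzb, 1.91 for Fzd1, -2.24 for Fzd2, -1.68 for Fzd7 and -5.14 for Rspo1. They had the direction of the values from both slides, but 0 of 41 members passed limma in that fit, with 9 at an unadjusted p under 0.05.

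Neither member chosen as a target passed. Axin2, which beta-catenin induces in most tissues and which feeds back on the pathway, was -1.81 and -1.64 in E11.5 progenitors, 0.81 and -0.61 in P0 progenitors, -1.55 and -1.64 in P0 non-progenitors, -0.97 and 0.09 in the 8-day culture and -2.06 and -0.17 in the 19-day culture. Both P0 progenitor arrays lay above those of E11.5 progenitors and of non-progenitors, and the differences were 1.82 ± 0.71 (limma adjusted p = 0.222) and 1.69 ± 0.71 (limma adjusted p = 0.223). The second Axin2 probe differed by 1.67 against E11.5 progenitors and by -0.2 against non-progenitors. Lef1, a partner of beta-catenin on DNA, was -1.27 and -1.08 in E11.5 progenitors, -1.30 and -4.90 in P0 progenitors, -0.67 and -0.42 in P0 non-progenitors, -5.88 and 0.56 in the 8-day culture and -4.39 and -1.64 in the 19-day culture. Its replicates were too far apart in 3 groups for any difference to show, with an SE of 2.05 log2 units in each comparison.

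Of 14 tested genes for Wnt secretion and extracellular modifiers, 4 passed in the 19-day culture against E11.5 progenitors, 3 higher and 1 lower, where 16.8% of all genes passed. Wls, the carrier that every Wnt needs to leave the cell, was -0.13 and -1.98 in E11.5 progenitors, 1.83 and 2.03 in P0 progenitors, 3.59 and 3.09 in P0 non-progenitors, 3.07 and 2.24 in the 8-day culture and 4.58 and 4.11 in the 19-day culture. E11.5 progenitors were lowest and the 19-day culture highest, with no overlap with any other group. Wls was 42.2-fold higher at 19 days (5.4 ± 0.58, limma adjusted p = 0.00135), 13.1-fold higher at 8 days (limma adjusted p = 0.0191) and 7.92-fold higher in P0 progenitors (limma adjusted p = 0.0358) than in E11.5 progenitors. The 19-day call passed without each array in turn, the others without 3 and without 1 of their 4 arrays. Of the glypicans, which hold ligands at the cell surface, Gpc4 rose 7.83-fold at 19 days (limma adjusted p = 0.000275) and Gpc3 fell 7.18-fold (limma adjusted p = 0.031), the latter kept without 2 of its 4 arrays, at -4.16 to -1.53, and lost with the slide as a block (limma adjusted p = 0.219). Over all the pathway lists, 44 of 122 calls passed without each array in turn.

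**Figure D5:**
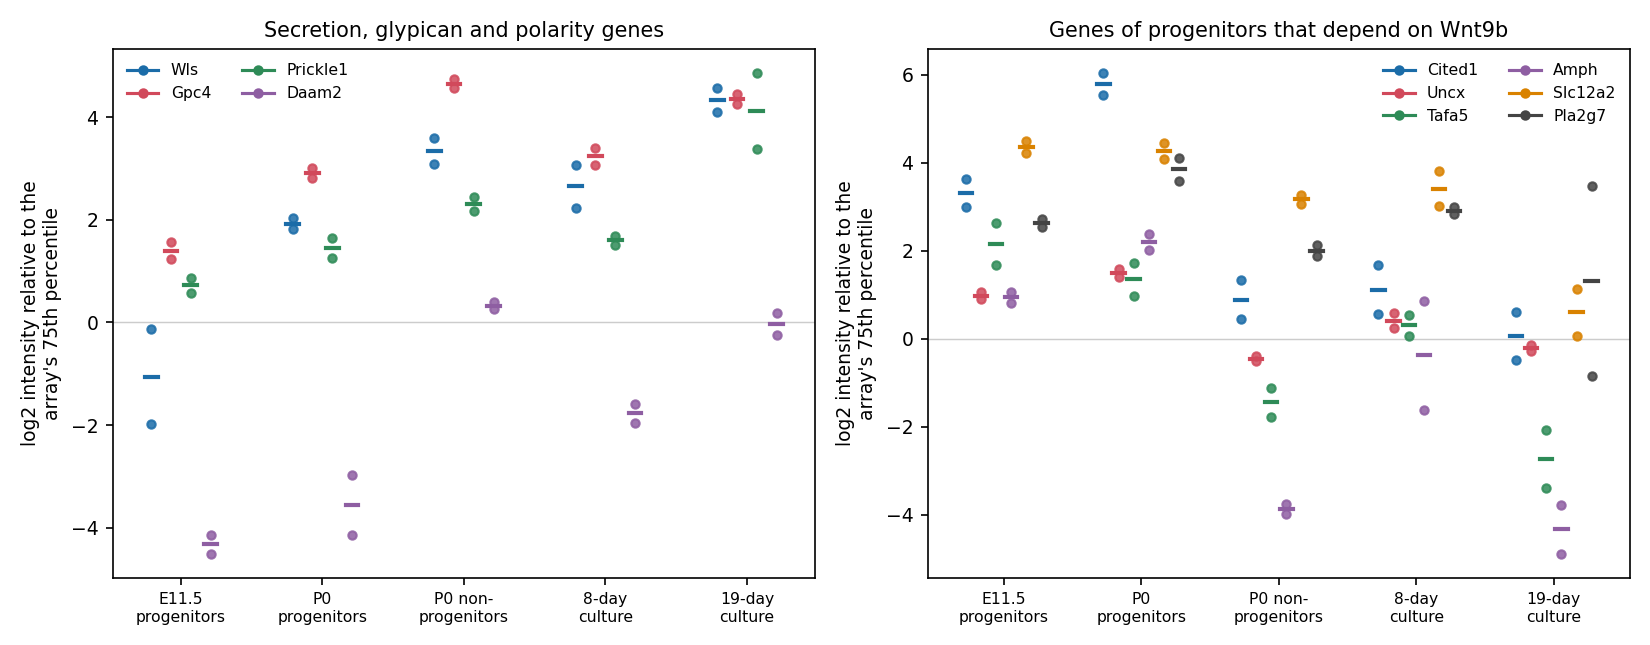
Log2 intensity relative to the array's 75th percentile (vertical axis) in the 5 groups (horizontal axis) for 4 genes of Wnt secretion, glypicans and polarity on the left and 6 of the 8 genes known to depend on Wnt9b in progenitors on the right; each point is 1 array and each short bar the mean of 2. Wls is lowest in E11.5 progenitors and highest in the 19-day culture, and Tafa5 and Slc12a2 are lowest in the 19-day culture.

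Inside the cell, 10 of 30 genes of the beta-catenin destruction complex and its nuclear partners passed in the 19-day culture against E11.5 progenitors, 2 higher and 8 lower, with a median of -0.58, where 16.8% of all genes passed (7.25% higher and 9.6% lower). The widest differences were those of Frat2, a Gsk3-binding protein, 17.5-fold lower (limma adjusted p = 0.0368), its relative Frat1, at least 8.41-fold lower (limma adjusted p = 0.00596), Cxxc4, an inhibitor of Dishevelled, 5.64-fold lower (limma adjusted p = 0.00832), and Tcf7l1, a T-cell factor that mostly represses, 4.75-fold lower (-2.25 ± 0.34, limma adjusted p = 0.00512). The Frat2 difference was -6.11 to -2.15 without each array in turn and was kept in 2 of 4 fits, the other 3 in all 4, and with the slide as a block none of these 4 passed (limma adjusted p = 0.313, 0.128, 0.195 and 0.125). Ctnnb1, which encodes beta-catenin, was 1.85-fold lower (-0.89 ± 0.08, limma adjusted p = 0.000801) and passed in each of those fits. Gsk3b (-0.77, limma adjusted p = 0.0499) and Tcf7l2 (-0.7, limma adjusted p = 0.0319) also passed, but the mean over all probes of these genes gave 0.03 and 0.04. At birth 5 of the 30 passed, all higher in P0 progenitors, where 4.24% of all genes did, among them Cxxc4 at 33.7-fold (limma adjusted p = 0.00125) and Tcf7l1 at 3.69-fold (limma adjusted p = 0.0167), the latter kept without 1 of its 4 arrays. In P0 against E11.5 progenitors 0 of 30 passed limma, beside 3.97% of all genes, with 8 at an unadjusted p under 0.05.

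Of 17 planar cell polarity genes, 2 passed in the 19-day culture against E11.5 progenitors (11.8%, below the 16.8% of all genes), both higher. They were Daam2, a partner of Dishevelled, at least 17.6-fold (limma adjusted p = 0.0012), and Prickle1, a core polarity protein, 10.6-fold (limma adjusted p = 0.00283), which was lost with the slide as a block (3.22, limma adjusted p = 0.0759). Of 9 alternative co-receptors and genes of receptor turnover, Adgra2, a co-receptor for Wnt7 ligands, was the 1 that passed in that comparison (11.1%), 1.63-fold higher (limma adjusted p = 0.0204), kept without 1 of its 4 arrays and lost with the slide as a block (limma adjusted p = 0.114). Ror2, a receptor for Wnt5a, was 7.58-fold lower in P0 than in E11.5 progenitors (limma adjusted p = 0.0237) and 7.68-fold higher in the 8-day culture than in P0 progenitors (limma adjusted p = 0.023), and both calls were lost without any of their 4 arrays in turn, the second also with the slide as a block (limma adjusted p = 0.0694). Of 15 tested general beta-catenin targets and feedback genes, among which Axin2, Lef1 and Lgr5 are members, 2 passed in P0 against E11.5 progenitors, where 3.97% of all genes did, both higher: the cyclin gene Ccnd1, 6.65-fold (limma adjusted p = 0.0064), and the receptor gene Tnfrsf19, 5.37-fold (limma adjusted p = 0.0227). These calls were kept without 2 and without 0 of their 4 arrays. In the 19-day culture against E11.5 progenitors Ccnd1 was 2.54-fold higher and Myc 2.42-fold lower (limma adjusted p = 0.0204 and 0.0451), and the other 13 did not pass, a share of 13.3% beside 16.8% of all genes. The Ccnd1 call was kept without 1 of its 4 arrays and the Myc call without 0, and neither passed with the slide as a block (limma adjusted p = 0.373 and 0.306).

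Genes known to need Wnt9b in progenitors fell in the longer culture. Of the 8, 7 passed as lower in the 19-day culture against E11.5 progenitors and 0 as higher, with a median of -3.65, beside 9.6% of all genes lower, and 6 passed as lower against P0 progenitors, beside 6.96%. Tafa5, which encodes a secreted protein, was 1.68 and 2.62 in E11.5 progenitors, 0.97 and 1.73 in P0 progenitors, -1.12 and -1.77 in P0 non-progenitors, 0.07 and 0.55 at 8 days and -3.39 and -2.06 at 19 days. The 19-day arrays were the lowest, 29.4-fold below E11.5 progenitors (-4.88 ± 0.55, limma adjusted p = 0.00169). Crym, at -6.92 and 0.86 in the 19-day culture, where 1 of 2 arrays was above background, fell 175-fold (-7.45 ± 2.06, limma adjusted p = 0.0472). Its difference was -11.34 to -3.56 without each array in turn and passed in 2 of 4 fits. Amph, with 1 of 2 19-day arrays above background, fell 38.6-fold (limma adjusted p = 0.00431), the ion transporter gene Slc12a2 13.6-fold (limma adjusted p = 0.00117) and Cited1, a marker of the uncommitted progenitor, 9.58-fold (limma adjusted p = 0.00678). With the slide as a block Tafa5, Slc12a2 and Cited1 passed (limma adjusted p = 0.0356, 0.0444 and 0.0372), and Amph (-2.78, limma adjusted p = 0.0838) and Crym (-8.07, limma adjusted p = 0.289) did not. Pla2g7 did not pass without the block, at -0.85 and 3.46 in the 19-day culture. The list also set the fractions at birth apart. Of the 8, 4 passed as higher in P0 progenitors than in non-progenitors and 0 as lower, beside 4.24% of all genes higher. At 8 days 0 of 8 passed limma against E11.5 progenitors, beside 4.84% of all genes, with 4 at an unadjusted p under 0.05. Cited1 and Crym are also among the progenitor markers above. Wnt9b itself was near -3 in E11.5 progenitors, P0 progenitors and both cultures, and 1.35 and 0.48 in P0 non-progenitors. Its 19-day difference from E11.5 progenitors was 0.12 ± 0.42 (limma adjusted p = 0.887).

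Of the 10 genes of nephron induction downstream of Wnt9b and Wnt4, 3 passed in P0 against E11.5 progenitors, beside 2.04% of all genes higher, and all 3 were higher: Jag1, a Notch ligand, 7.73-fold (limma adjusted p = 0.0212), Ccnd1, and C1qtnf12, 6.51-fold (limma adjusted p = 0.0105), kept without 1, 2 and 2 of their 4 arrays. In the 8-day culture against P0 progenitors 4 of 10 passed, all lower, beside 1.58% of all genes lower, with a median of -3.03. Bmper went from 3.03 and 3.39 to -6.03 and -6.11, below the lowest signal well above background on the 8-day arrays. Ccnd1 was 20.9-fold lower (limma adjusted p = 0.000901), and C1qtnf12 differed by -3.63. All of these passed with the slide as a block (limma adjusted p = 0.0153, 0.00467 and 0.021). Jag1 was 8.48-fold lower (limma adjusted p = 0.0191), a call lost without any of the 4 arrays in turn and with the slide as a block (limma adjusted p = 0.0666). Bmper was not low at 19 days, at 3.75 and 1.25, beside 2.2 and 1.98 in E11.5 progenitors. C1qtnf12, Ccnd1 and Jag1 did stay below P0 progenitors at 19 days, with differences of -3.59, -1.39 and -2.36. Pax8, a transcription factor of the early nephron, was 270-fold lower in the 19-day culture than in P0 progenitors (limma adjusted p = 0.00553), with 1 of 2 19-day arrays above background. This difference was -9.58 to -6.58 without each array in turn, passing each time, and with the slide as a block it was -5.12 (limma adjusted p = 0.136). Lhx1 did not pass in the 19-day culture against E11.5 progenitors (0.08 ± 0.24, limma adjusted p = 0.856).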

How the data were processed

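Each of the 10 arrays came as scanner output, written by Feature Extraction 11.5.1.1 (Agilent) according to the submitters' processing notes. The deposited values are intensities, already background-subtracted and detrended within each array per the file headers, and not scaled between arrays. The file of P0 progenitors replicate 2 holds 3 significant digits, per the deposited values. RNA was amplified with a whole-transcriptome kit and labelled with Cy3, per the labels' protocols.

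Control spots and outlier spots were left out, each array's log2 processed signal was reduced by its 75th percentile, and spots of a probe were averaged. RefSeq named 31739 probes of the array. A gene was represented by its brightest probe that passed the filter, well above background on both arrays of a group. Positions of probes are not printed, and promoters are RefSeq's on GRCm38.p6. Where neither array of the dimmer group was above background, its values were raised to each array's lowest signal well above background, giving an "at least" fold. Group means were fitted to all 10 arrays with limma 3.58.1 (R 4.3.3, data.table version 1.17.8), with an intensity trend, 5 residual and 2.49 prior degrees of freedom, adjusting by Benjamini-Hochberg within each of 7 comparisons at 0.05. The procedure was tested on simulated data.

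Values on every array are given for members that passed in a comparison or in the F test, and others appear as ranges and counts, except Axin2 and Lef1, shown in full as the members chosen as targets. Of each further pathway list, up to 4 genes that passed, by size of change, and 2 that did not could be named per comparison, and not all of these are. Cthrc1 passed in the 19-day culture against E11.5 progenitors (3.74) and Lrp4 in P0 against E11.5 progenitors (3.63). Each differed more widely than a gene of its list that is named there. Ctnnb1, Gsk3b, Tcf7l2 and Cited1 fall outside that rule in the 19-day culture against E11.5 progenitors and were chosen after their values were seen. The members and lists were chosen with earlier results of these data known. Alternatives were quantile normalization, normexp with an offset of 50, no filter, the mean of a gene's probes, blocks for slide and replicate number, the arrays of 1 slide, the compared groups alone, and leaving out each array.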

Additional observations from a re-analysis of the deposited data

Results flagged for a closer look

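In the fit without a slide term, the effect of culture differed between 8 and 19 days for 7 members, by the limma contrast of the cultures (2-sided, Benjamini-Hochberg over all tested genes, 2 arrays a group), which equals the difference of their effects against E11.5 progenitors. The difference, 19 minus 8 days on the log2 scale, was 4.81 for Sfrp1 (limma adjusted p = 0.00268), 3.58 for Frzb (limma adjusted p = 0.0109) and 2.14 for Fzd1 (limma adjusted p = 0.00337). It was -8.04 for Sfrp2 (limma adjusted p = 0.00448), -5.18 for Rspo1 (limma adjusted p = 0.0143), -2.30 for Fzd2 (limma adjusted p = 0.0014) and -1.80 for Fzd7 (limma adjusted p = 0.0266). For each of the 7, both 19-day arrays lay on the same side of both 8-day arrays. The 8-day replicates lie on different slides and the 19-day replicates on 1, and the slide 2 values stand in the report. With the slide as a block the differences of Rspo1 (-5.14, limma adjusted p = 0.057) and Fzd7 (-1.68, limma adjusted p = 0.0971) did not pass, and the other 5 did.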

How the results depend on the processing

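Of the 47 member calls, 11 passed under every setting tried: Fzd2, Sfrp1 and Wnt9b at birth, and Fzd1, Fzd2, Sfrp1 and Sfrp2 in the 19-day culture against each fresh progenitor group. None reversed. Among genes of the other lists, the 19-day differences from E11.5 progenitors of Gsk3b and Tcf7l2 turned to 0.03 and 0.04 with the mean of all probes.

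Fitted to the compared groups alone, which leaves fewer residual degrees of freedom, members called were 1 for P0 against E11.5 progenitors, 0 for the 8-day and 5 for the 19-day culture against E11.5 progenitors, 0 for 19 against 8 days and 3 for the 8-day culture against P0 progenitors. The counts of 0 came with 7 and 14 members at an unadjusted limma p under 0.05. With the slide as a block, the 8-day culture against E11.5 progenitors gave 0 (9 unadjusted), the 19-day culture 4 against E11.5 and 4 against P0 progenitors. Slide 1 alone gave 5 for the 8-day culture against E11.5 and 4 against P0 progenitors, and slide 2 alone gave 0 for 19 against 8 days (9 unadjusted). The 8-day culture against P0 progenitors, with 1 call, gave 4 with normexp, 2 with the mean of all probes and 2 with the replicate number as a block. The cause of these shifts was not tested. The share of all genes that passed under each setting, or with an array left out, was not counted beside the members. The replicate numbers do not pair the samples (10 pairs of groups, correlations of same-numbered deviations from -0.01 to 0.03), and with the replicate block 44 of the 47 member calls passed.

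Leaving out each array in turn gave 3 to 5 calls at birth, 0 to 3 for P0 against E11.5 progenitors, 0 to 2 for the 8-day and 8 to 11 for the 19-day culture against E11.5 progenitors, 5 to 8 between the cultures, 0 to 1 and 6 to 8 for the 8-day and 19-day cultures against P0 progenitors, and 15 to 17 across the 5 groups. The lone array of a group was then assumed to vary like the others. Quantile normalization and no filter on dim probes left each count of calls within 1.5 times its value. With normexp the median over all genes in the 19-day culture against E11.5 progenitors was -0.17 in place of 0.01, and the member differences are relative to it.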
